A study of Mus musculus with 21 samples.

Results

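Expression of 42 genes of the cell cycle and DNA replication was followed through 21 RNA sequencing libraries from mice that were sedentary or physically active. The genes were taken by symbol from a list of proliferation genes, and all 42 were listed in each of the 4 deposited tables, which hold 19241 genes for tumours and 13513 and 13636 genes for hematopoietic stem cells (HSC). They fall into 9 S phase genes (Mcm2 to Mcm7, Pcna, Rrm1 and Rrm2), 7 genes of G1/S and licensing control (Ccne1, Ccne2, E2f1, Cdc6, Cdt1, Gmnn and Tyms) and 26 mitotic genes, of which Mki67, Top2a, Cdk1 and Ccnb1 are the best known. All groups carried the MMTV-PyMT transgene, in which a mouse mammary tumour virus promoter drives a viral oncogene in mammary epithelium, so no group was free of the oncogene. Mammary tumours came from sedentary and physically active mice at week 12 and at week 18. HSC came from sedentary and physically active mice at week 12, and at week 14 from sedentary mice that had received cells of a physically active mouse, called transplant HSC here. Each of these 7 groups had 3 libraries, which the labels give as biological replicates. The event from which the weeks are counted, the form of activity and the conditioning of the transplant recipients are not given in the sources used here.

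A dividing cell first licenses its replication origins by loading the Mcm2 to Mcm7 helicase with the help of Cdc6 and Cdt1, while geminin (Gmnn) blocks a second loading. Cyclin E (Ccne1, Ccne2) and E2f1 drive entry into S phase, in which the sliding clamp Pcna and ribonucleotide reductase (Rrm1, Rrm2) serve DNA synthesis. Cyclin B (Ccnb1, Ccnb2) with Cdk1 then brings the cell into mitosis, and the spindle kinesins, the centromere proteins and the Aurora and Polo-like kinases carry it through. Oncogene-driven mammary tumours contain many dividing epithelial cells. Long-term HSC are known for resting mostly outside the cycle, whereas the progenitors next to them divide often.

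The 3 gene classes differ in the letters of their promoters, which are shown for 2 mitotic genes that rank among the larger changes in tumours and for 2 subunits of the Mcm helicase. Promoter sequences were taken from RefSeq on GRCm38.p6, the assembly also called mm10, and were found for 34 of the 42 members, with 36 start sites in all. The 200 bases before the start are printed 5′ to 3′ in the direction of the gene for Cdk1 at chr10:69352913-69353112 (minus strand), Ube2c at chr2:164769729-164769928 (plus strand), Mcm5 at chr8:75109309-75109508 (plus strand) and Mcm6 at chr1:128359706-128359905 (minus strand). Capitals mark CCAAT (the CCAAT box), TTTGAA or TTCGAA (the cell cycle homology region of late cell cycle genes) and TTTCCCGC, TTTCGCGC, TTTGCCGC or TTTGGCGC (E2F letters), each on either strand, with overlapping matches run together.
Cdk1: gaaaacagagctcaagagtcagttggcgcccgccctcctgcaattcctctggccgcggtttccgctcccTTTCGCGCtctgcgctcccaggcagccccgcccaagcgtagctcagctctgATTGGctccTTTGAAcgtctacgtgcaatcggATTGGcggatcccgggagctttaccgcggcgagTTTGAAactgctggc
Ube2c: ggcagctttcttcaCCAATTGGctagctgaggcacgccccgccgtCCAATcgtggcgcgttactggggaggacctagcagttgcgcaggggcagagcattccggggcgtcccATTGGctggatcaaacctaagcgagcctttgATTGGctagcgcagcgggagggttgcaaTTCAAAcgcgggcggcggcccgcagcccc
Mcm5: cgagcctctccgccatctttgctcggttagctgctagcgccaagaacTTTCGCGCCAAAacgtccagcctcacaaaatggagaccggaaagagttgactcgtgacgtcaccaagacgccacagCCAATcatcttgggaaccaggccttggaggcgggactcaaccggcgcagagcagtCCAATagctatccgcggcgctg
Mcm6: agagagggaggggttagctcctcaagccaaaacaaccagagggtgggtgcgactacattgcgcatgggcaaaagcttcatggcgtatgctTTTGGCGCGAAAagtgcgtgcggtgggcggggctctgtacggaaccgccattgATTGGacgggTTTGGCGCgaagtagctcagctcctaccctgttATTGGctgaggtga
In these lines Cdk1 carries all 3 motifs, Ube2c carries CCAAT with the homology region letters, and both Mcm genes carry CCAAT with E2F letters. Counts were made over the 300 bases from 250 before to 50 after the start. The homology region letters stood in 18 of 22 mitotic windows (81.8%) and in 2 of 9 S phase windows (22.2%), beside 19.2% of all 32851 RefSeq promoter windows. E2F letters stood in 4 of 9 S phase windows (44.4%), in 2 of 5 windows of G1/S control genes and in 1 of 22 mitotic windows (4.55%), beside 2.26% of all windows. CCAAT was in 9 of 9 S phase and 19 of 22 mitotic windows but in 0 of 5 windows of G1/S control genes, beside 37.4% of all windows. A match is a description of letters and shows no binding.

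Tumour libraries held 20838963 to 28973775 reads. HSC libraries held 16406889 to 72417315 reads, and replicate 3 of each HSC group was the deepest, with at least 58500940 reads against at most 24574563 in the others. All 6 mammary epithelium markers were listed in every tumour, with summed levels of 54791 to 134433 normalized counts. In the HSC, all 8 stem cell markers were listed. In sedentary HSC, Kit lay between 19.2 and 24.7 reads per kilobase of exon scaled to library size (RPKM), Ly6a between 28.9 and 45.9 RPKM, Hoxa9 between 8.599 and 12.23 RPKM and Hlf between 3.43 and 4.12 RPKM. Procr lay between 1.21 and 2.04 RPKM, and the lowest were Mecom, between 0.333 and 0.432 RPKM, and Slamf1, between 0.258 and 0.287 RPKM. Slamf1 reached 2.51 RPKM in 1 active HSC library. Active HSC replicate 2, numbered 6 in the labels, holds different reads in the 2 HSC tables at 13105 of 13399 shared symbols and at all 42 members, and which column is that sample cannot be told from the labels. Among tumours, active replicate 3 of week 12 stood apart, with B cell markers at 21236 against 57.5 to 164 in the other 11 tumours and T cell markers at 7924 against 90.5 to 324.

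All 42 genes were expressed in every group, and levels per length were higher in the sorted HSC than in the tumours. In sedentary tumours of week 12, Pcna was the highest member at 57.5 ± 8.61 RPKM (SD, n = 3), followed by Cdc20, the activator of the anaphase-promoting complex, at 40.9 ± 5.71 RPKM. Those means were far enough apart for their ranges not to overlap, whereas Mki67, the marker used to score dividing cells in tissue, at 25.2 ± 6.23 RPKM was within the spread of Ccnb2, whose mean was 24.95 RPKM. The lowest member was the kinetochore gene Ndc80 at 2.07 ± 0.631 RPKM. Sedentary HSC had Pcna at 195 ± 36.7 RPKM, Mcm3 at 156 ± 2.84 RPKM and Mki67 at 106 ± 23.2 RPKM, with Cenpf lowest at 8.14 ± 1.35 RPKM. By class, the median of the group means was 139 RPKM for S phase, 19.9 RPKM for G1/S control and 43.9 RPKM for mitotic genes in sedentary HSC, and 19.3, 3.60 and 10.3 RPKM in sedentary tumours of week 12. Across the 4 tumour groups the S phase median ran from 18.5 RPKM (active, week 12) to 24.9 RPKM (sedentary, week 18), and the mitotic median from 8.42 RPKM (active, week 12) to 14.96 RPKM (active, week 18).

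**Figure D1:**
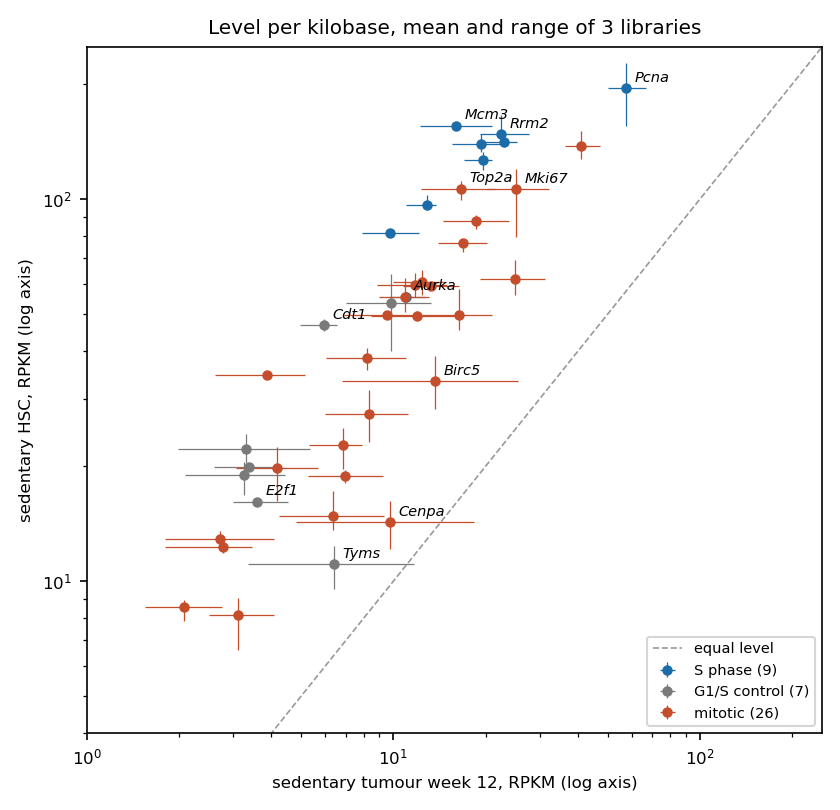
Each point is 1 of the 42 genes, with its level in sedentary tumours of week 12 on the horizontal log axis and in sedentary HSC of week 12 on the vertical log axis, both in RPKM. Points are means and lines the range of 3 libraries. All 42 points lie above the dashed line of equal level, and Cenpa and Tyms lie nearest to it.

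The tumours fell below the HSC most for the replication helicase and least for Cenpa and Tyms. Mcm3, a subunit of the replication helicase, had jointly scaled reads of 1871, 1245 and 1061 in sedentary tumours of week 12 and 15294, 14413 and 15089 in sedentary HSC. The ranges were far apart, and the log2 difference of tumour from HSC was -3.46 ± 0.22 (SE), with an adjusted p of 4.39e-05 (limma over all genes). Bub1, a kinase of the spindle checkpoint, held 533, 374 and 266 reads in tumours and 3949, 3733 and 3866 in HSC, a log2 difference of -3.35 ± 0.26 (SE). In all, 40 of the 42 members fell in tumours at an adjusted p under 0.05 in limma, where 73% of 12430 genes were called and 34.9% were called lower. These were 9 of 9 S phase, 6 of 7 G1/S control and 25 of 26 mitotic genes. The rest of the 10 largest falls were Mcm2 (-3.24), Cdt1 (-3.13), Mcm4 (-3.07), Mcm5 (-3.02), Ccne1 (-3.02), Rrm2 (-2.88), Top2a (-2.86) and Mcm7 (-2.84), all as log2 differences. Of these 10 genes, 6 encode Mcm subunits or the Mcm loader Cdt1.

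The members that did not pass were Tyms, thymidylate synthase, and Cenpa, the centromeric histone. Cenpa held 2555, 797 and 655 reads in tumours and 2453, 2134 and 1823 in HSC, so tumour replicate 1 alone reached the HSC range, and the log2 difference was -0.95 ± 0.52 (SE) with an adjusted p of 0.146 in limma. Birc5 (survivin, a passenger of the Aurora B complex) showed the same high tumour replicate 1, with 2055, 675 and 536 reads in tumours. Without that library all 42 members passed, whereas Birc5 did not pass without tumour replicate 2 or 3 or without HSC replicate 1 or 2. The median log2 difference was -2.88 for S phase, -2.73 for G1/S control and -2.28 for mitotic genes, against 0.05 for all genes. Scaling to total reads moved the median of all genes to 0.35 and that of the members to -2.12. Tissue, extraction method and gene table differ together between these groups and cannot be told apart, nor can a smaller share of dividing cells and less RNA of these genes per cell in any bulk sample.

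Among the 12 tumours, the 42 genes moved largely together from library to library. Mitotic genes varied more than S phase genes: the ratio of the highest to the lowest library had a median of 4.16 over 26 mitotic genes, with a range of 2.79 to 6.35, and of 2.43 over 9 S phase genes, with a range of 2.15 to 3.54. Active replicate 1 of week 18 was the highest library for 37 of 42 members, and active replicate 3 of week 12 the lowest for 33 of 42. The low library was lowest for 24 of 26 mitotic genes but for 5 of 9 S phase genes. It is also the library with the B and T cell markers given above, the highest adipocyte marker sum (278112 against 579 to 63893 in the others) and the lowest mammary epithelium sum (54791), and their part in its low values was not tested.

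**Figure D2:**
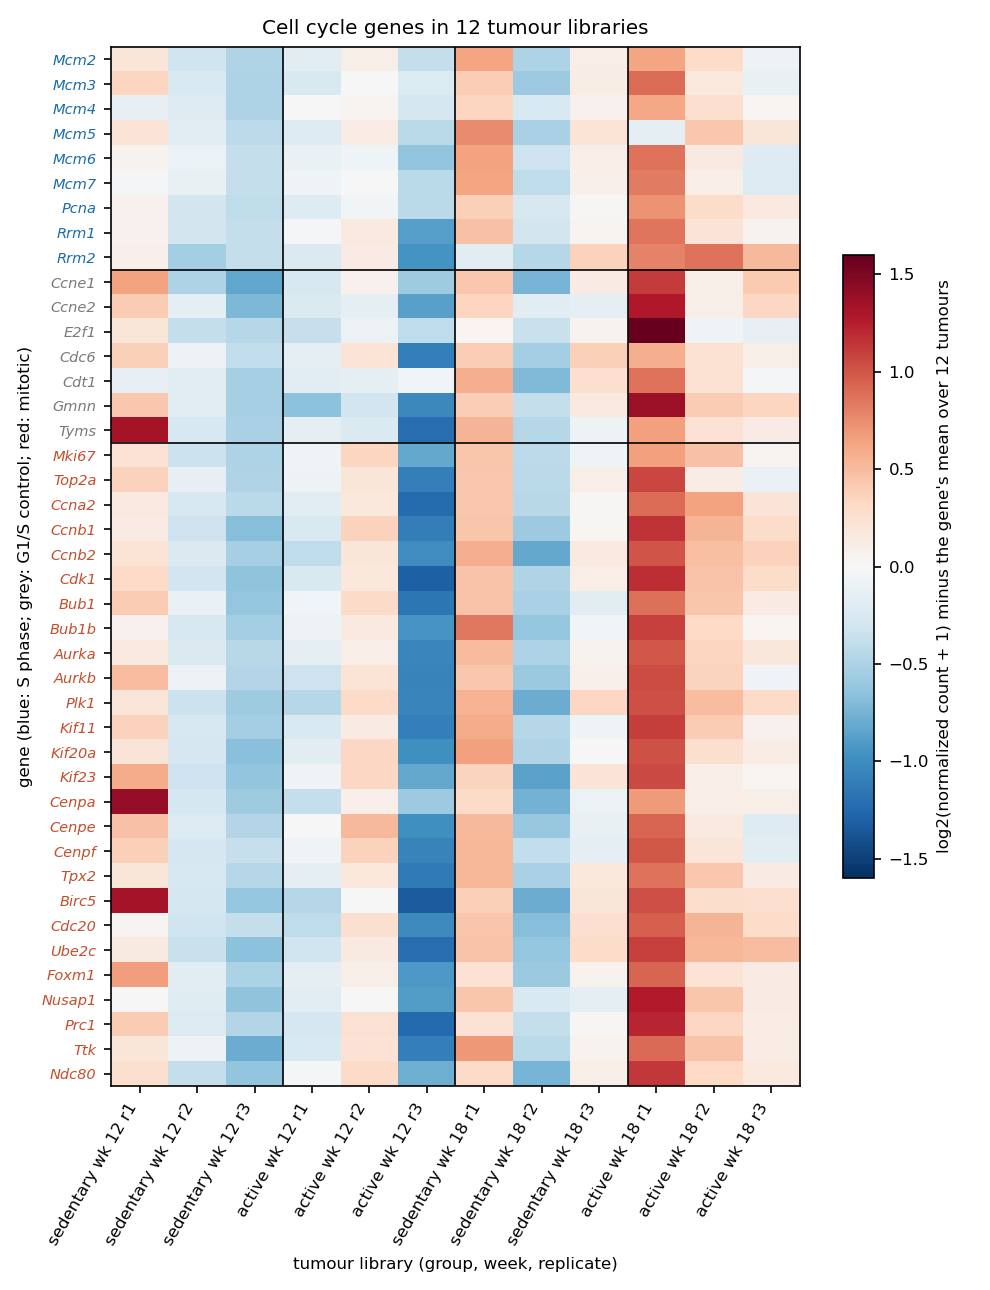
Each row is 1 of the 42 genes and each column 1 of 12 tumour libraries; colour gives log2(normalized count + 1) minus the gene's mean over the 12 tumours. Active replicate 3 of week 12 is blue for nearly all mitotic genes, and active replicate 1 of week 18 is red for 37 of 42 members as the highest library.

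Single genes broke the common pattern in single libraries. E2f1, a transcription factor of S phase entry, held 1236, 301 and 287 normalized counts in active tumours of week 18, where replicate 1 was the highest of the 12 libraries and the next was at 359. Mcm5 was lowest of its group in that library, with values of 1789, 2691 and 2288, while the partner subunit Mcm2 was highest there, at 2884, 2272 and 1757. In sedentary tumours of week 12, replicate 1 was the highest of the 12 tumours for Birc5 at 2167, 707 and 557, for Cenpa at 2694, 835 and 680.2 and for Tyms at 1776, 592 and 493. Mcm4, another helicase subunit, differed less between these libraries, at 1229, 1160.3 and 954.

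At week 12, cell cycle genes did not separate active from sedentary tumours. Mki67 held 8096, 5443 and 4910.5 normalized counts in sedentary and 6644, 8774 and 3901 in active tumours. The groups overlapped and the log2 fold change of active over sedentary was 0.02 ± 0.37 (SE). Top2a, the topoisomerase that untangles sister chromatids, held 4826, 3410.4 and 2669.5 against 3528, 4263 and 1742, a log2 fold change of -0.25 ± 0.42 (SE). Pcna held 4013, 3121 and 2891 against 3301, 3720.3 and 2832, a log2 fold change of -0.02 ± 0.20 (SE). Aurkb, the kinase that corrects spindle attachments, held 1182, 785 and 603 against 662, 972 and 398. For each of these genes the highest active tumour was above the lowest sedentary one.

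The largest differences at week 12 were Birc5 at -0.74 ± 0.63 (SE), Tyms at -0.72 ± 0.59 (SE) and Gmnn at -0.57 ± 0.33 (SE) on the log2 scale, and on the other side Mcm4 at 0.19 ± 0.18 (SE), Cdt1 at 0.15 ± 0.17 (SE) and Ndc80 at 0.08 ± 0.38 (SE). Gmnn, the inhibitor of relicensing, held 487, 316 and 248 in sedentary and 228, 291 and 175 in active tumours. Cdt1, its target, held 496, 481 and 376 against 478, 486 and 526, with overlap in both genes. None of these differences passed: limma called 0 of 42 members, where 0.517% of 19162 genes were called, and 0 members had an unadjusted p under 0.05, where 4.09% of genes had. The count was also 0 in edgeR, DESeq2 and limma-voom on recovered reads. Median log2 fold changes were -0.03 for S phase, -0.26 for G1/S control and -0.18 for mitotic genes, with 6 of 42 members above 0 where 51.7% of all genes were. The median over all members, -0.15, became 0.15 without active replicate 3, 0.07 without sedentary replicate 1 and -0.42 without active replicate 2, so its sign rested on single libraries. Skeletal muscle markers summed to 47107 to 103692 in sedentary and 254 to 1066 in active tumours of this week, and their part in these values was not tested.

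At week 18, the log2 fold change of active over sedentary tumours was above 0 for all 42 genes, with overlap between the groups in all but Rrm2 and Ube2c, and Mcm5 was level. Rrm2, the regulated subunit of ribonucleotide reductase, held 1586, 1313 and 2333 normalized counts in sedentary and 3113, 3292 and 2572 in active tumours. All 3 active libraries were above all 3 sedentary ones, and the log2 fold change was 0.81 ± 0.26 (SE), with an adjusted p of 0.824 in limma. Ccnb1, the mitotic cyclin, held 1971, 963 and 1474 against 3221, 2103 and 1773, a log2 fold change of 0.70 ± 0.36 (SE). Its partner kinase Cdk1 held 1533, 796 and 1197 against 2523, 1537 and 1369, a log2 fold change of 0.62 ± 0.35 (SE). For both, sedentary replicate 1 lay within the active range, while within each same-numbered pair of libraries the active one was higher. The labels name no pairing by number, and for Top2a and Mcm7 below the active library of replicate 3 was the lower one.

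E2f1 had a log2 fold change of 0.69 ± 0.61 (SE) and its other 5 libraries at this week lay between 245 and 326. Mki67 held 9339, 5134 and 6578 in sedentary and 10871, 9562 and 7082 in active tumours, and Top2a 5028, 2769.6 and 4017 against 7785, 4054 and 3467. In these 3 genes sedentary replicate 2 was the lowest and active replicate 1 the highest of the 6 libraries. The smallest differences were those of Mcm5 at 0.0032 ± 0.37 (SE), Mcm6 at 0.13 ± 0.38 (SE) and Mcm7 at 0.14 ± 0.39 (SE). Mcm7 held 3661, 1781 and 2491 in sedentary and 4194, 2541 and 2033 in active tumours, and Mcm5 3379.7, 1393 and 2324 in sedentary ones. Rrm2 and these Mcm subunits stood at opposite ends of the list at this week.

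Limma called 0 of 42 members at week 18, where 0% of 18939 genes were called, and 1 member, Rrm2, had an unadjusted p under 0.05 (2.38% of members, 5.97% of all genes). With the replicate block 2 members had one, and the share of all genes under that block was not counted. EdgeR, DESeq2 and limma-voom also called 0. The medians were 0.25 for S phase, 0.55 for G1/S control and 0.52 for mitotic genes, and 42 of 42 members were above 0 where 51.1% of all genes were. Higher values with no overlap were found for 2 members, Rrm2 and Ube2c, where 6.03% of genes showed this. The median of the members was 0.48 and dropped to 0.21 without active replicate 1 and to 0.19 without sedentary replicate 2, and was 0.72 without sedentary replicate 1. In active replicate 1 fibroblast markers summed to 14412, the lowest of the 12 tumours, and adipocyte markers to 579, also the lowest; their part was not tested.

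The log2 change from week 12 to week 18 was above 0 for 42 of 42 members in active tumours and for 37 of 42 in sedentary tumours, and none passed the test. In active tumours Gmnn went from 228, 291 and 175 at week 12 to 929, 479 and 457 at week 18. No library of week 12 reached the lowest of week 18, and the log2 change was 1.37 ± 0.36 (SE), with an adjusted p of 0.185 in limma. Ube2c, a ubiquitin-conjugating enzyme of the anaphase-promoting complex, went from 989, 1357 and 527 to 2618, 1779.9 and 1738, a log2 change of 1.17 ± 0.40 (SE), again with no overlap. Birc5 went from 628, 860.3 and 341 to 1754, 1041 and 1036, a log2 change of 1.12 ± 0.56 (SE). Ccne1, cyclin E1, went from 189, 238 and 152 to 493, 241 and 302, and Ccne2 from 249.6, 263 and 161 to 711, 313 and 367. Both cyclins E were above the week 12 range in all 3 libraries of week 18. The smallest changes were again among the helicase genes, with Mcm5 at 0.33 ± 0.33 (SE), Mcm4 at 0.38 ± 0.21 (SE) and Mcm7 at 0.41 ± 0.32 (SE).

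Limma called 0 of 42 members for this change, where 0.0156% of 19182 genes were called. At an unadjusted p under 0.05, 14 of 42 members (33.3%) were higher and none lower, where 17.8% of all genes had such a p and 6.8% were higher with it. The 14 were 2 S phase, 2 G1/S control and 10 mitotic genes. No overlap with higher values at week 18 was seen for 18 of 42 members, where 12.1% of genes showed it. EdgeR and limma-voom called 0 members, whereas DESeq2 called 2, Gmnn with an adjusted p of 0.00665 and Rrm2 with 0.0243, where it called 2.83% of genes higher. All 42 members were above 0, where 47.5% of genes were. The medians were 0.47 for S phase, 0.87 for G1/S control and 0.85 for mitotic genes. The median of all members, 0.79, was 0.50 without active replicate 3 of week 12 and 0.51 without active replicate 1 of week 18, and the 14 members became 2 without either of them. In sedentary tumours the same medians were 0.28, 0.15 and 0.18, with 37 of 42 members above 0 where 47.3% of genes were; limma called 0 members there, where 0.00526% of genes were called, 0 had an unadjusted p under 0.05, where 3.72% of genes had, and the other 3 tools called 0. Largest there were Ube2c at 0.34 ± 0.40 (SE), Ttk, a checkpoint kinase, at 0.33 ± 0.42 (SE) and Mcm4 at 0.33 ± 0.21 (SE); lowest were Cenpa at -0.37 ± 0.49 (SE), Birc5 at -0.22 ± 0.56 (SE) and Tyms at -0.19 ± 0.50 (SE), the genes with the high sedentary replicate 1 of week 12. Their median of 0.18 became -0.03 without sedentary replicate 1 of week 18, 0.03 and 0.39 without replicates 3 and 1 of week 12, and 0.43 without sedentary replicate 2 of week 18.

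The difference between these activity effects, tested as an interaction over all 12 tumours, was above 0 for 42 of 42 members, where 48.5% of genes were, but passed for none: limma called 0 members, where 0.0104% of 19241 genes were called, and edgeR, DESeq2 and limma-voom called 0. Gmnn was the 1 member with an unadjusted p under 0.05, where 6.33% of genes had one, at 1.22 ± 0.51 (SE) with an adjusted p of 0.77 in limma. Birc5 at 1.34 ± 0.79 (SE) and Tyms at 1.06 ± 0.70 (SE) were the others of the 3 largest, and Mcm5 at 0.05 ± 0.46 (SE), Mcm4 at 0.05 ± 0.30 (SE) and Mcm7 at 0.13 ± 0.45 (SE) the smallest. The member median of 0.65 was 0.33 without active replicate 3 of week 12 or without sedentary replicate 2 of week 18, 0.37 without active replicate 1 of week 18 and 0.39 without sedentary replicate 1 of week 12. The interaction shares libraries with every other tumour comparison, and each change over time shares libraries with the activity comparisons of both weeks. The activity comparisons of week 12 and week 18 share no library with each other, nor do the changes over time in sedentary and active tumours.

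**Figure D3:**
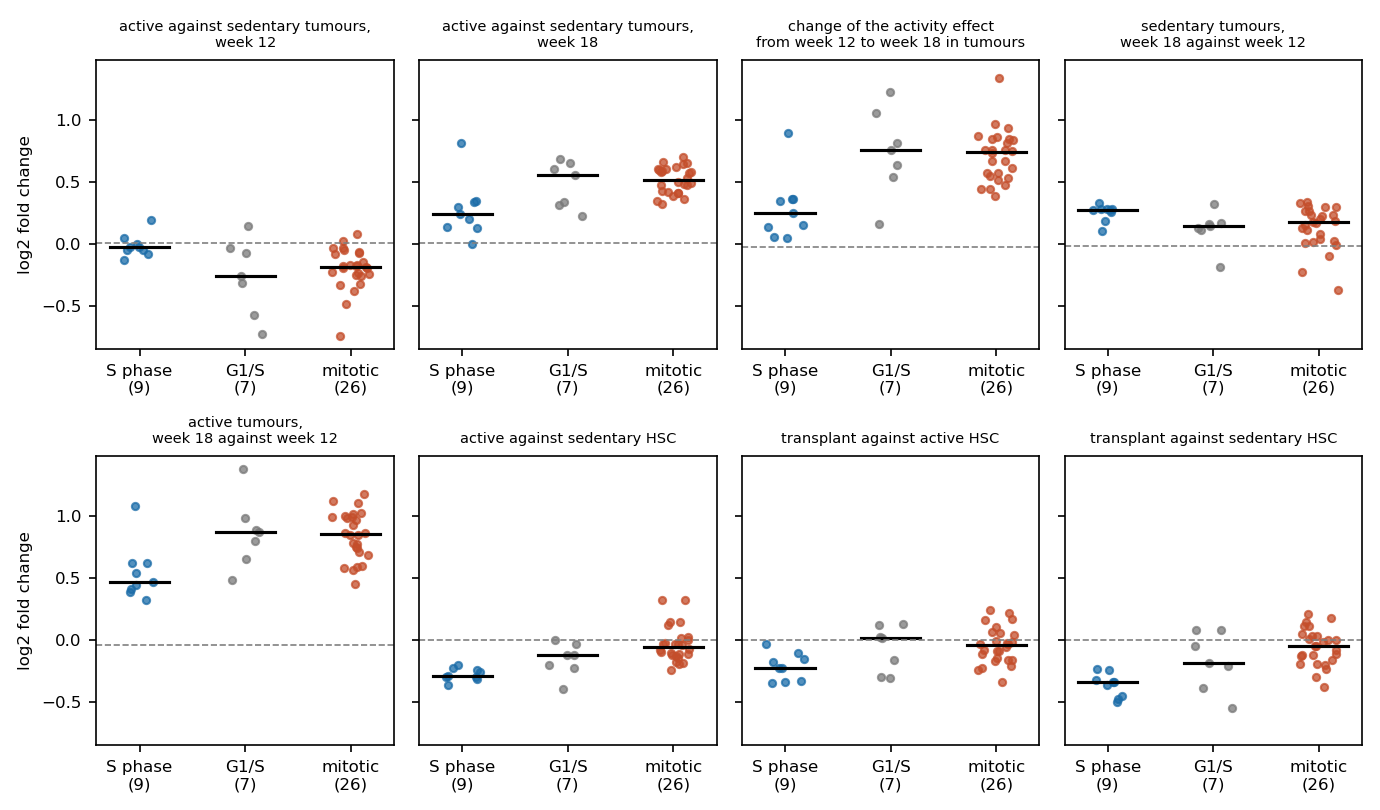
Each panel is 1 comparison, each point the log2 fold change of 1 gene, black bars the class medians and the dashed line the median over all genes tested. In tumours at week 18 all 42 points lie above 0 with S phase genes lowest as a class (0.25 against 0.52 for mitotic genes), and in all 3 HSC panels the 9 S phase points lie below 0. The HSC panels share libraries with each other.

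The class median of S phase genes was below that of mitotic genes in each tumour comparison that involved active tumours of week 18, although no member passed the test. These comparisons share the same 3 active libraries of week 18. The S phase median minus the mitotic median of the log2 fold changes was -0.27 at week 18, -0.39 from week 12 to week 18 in active tumours and -0.49 for the interaction, with 0.16 at week 12 and 0.10 in sedentary tumours over time. Per library, the mean deviation of S phase genes minus that of mitotic genes was -0.34, -0.06 and -0.10 in active tumours of week 18, and -0.02, 0.17 and 0.07 in sedentary ones. The groups did not overlap at that week, with -0.057 (active) and -0.020 (sedentary) as the nearest values. At week 12 the values were -0.27, 0.00 and 0.13 in sedentary and 0.06, -0.17 and 0.52 in active tumours, which overlapped, and 0.52 belongs to active replicate 3. Mitotic genes varied more than S phase genes over the 12 tumours, as given above. Active replicate 1 of week 18, at -0.34, had the highest mean deviation over all members (0.95). Active replicate 3 of week 12, at 0.52, had the lowest (-0.88). Whether the class difference goes beyond this wider spread of mitotic genes was not tested. These scores are descriptions of chosen genes and carry no test.

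**Figure D4:**
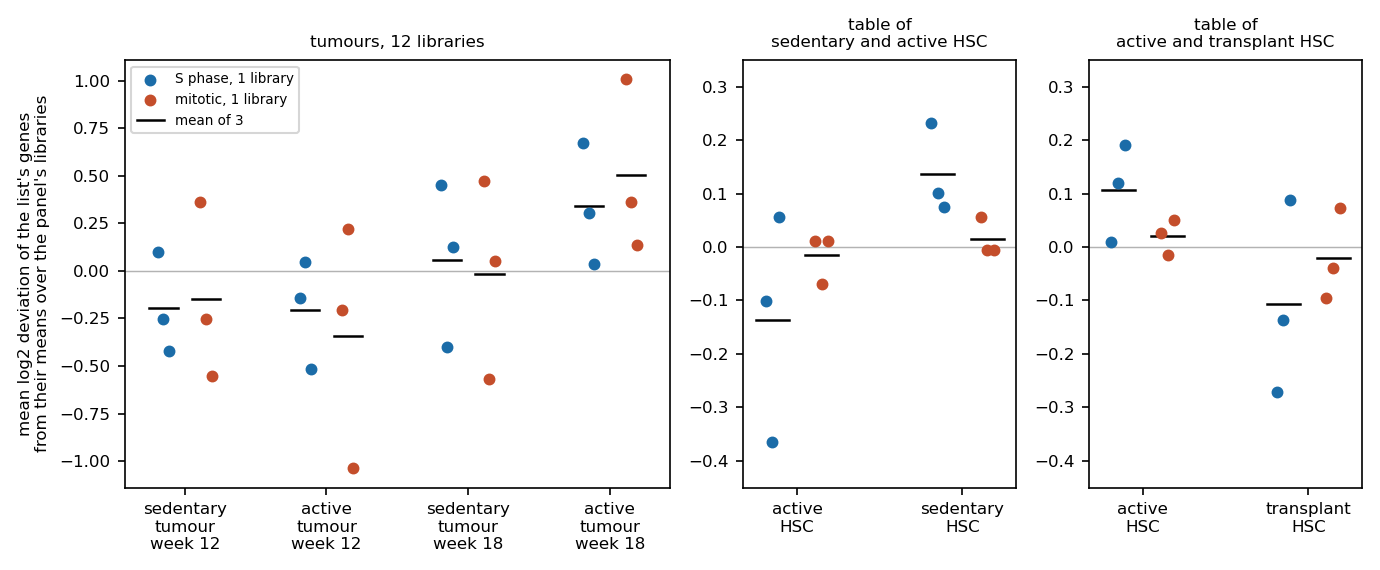
Each point is 1 library's mean log2 deviation of the 9 S phase genes (blue) or the 26 mitotic genes (red) from their means over the libraries of the panel, and bars are means of 3; the HSC panels have a narrower vertical axis than the tumour panel. Tumour scores run from -1.04 to 1.01, while HSC scores stay within -0.36 and 0.23, with S phase spread wider than mitotic genes.

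In HSC the mitotic genes had a median near 0 between active and sedentary groups, and all 9 S phase genes had lower means in active HSC, although no member passed the test. Mcm2 held 12745, 10146 and 14377 normalized counts in active and 15619, 15074 and 14691 in sedentary HSC. No active library reached the lowest sedentary one, and the log2 fold change was -0.30 ± 0.17 (SE), with an adjusted p of 0.477 in limma. Ccne1 held 1221, 1047 and 1339 against 1761, 1519 and 1440.1, also without overlap, at -0.39 ± 0.16 (SE), the largest difference of the 42. Mcm7 held 12759, 9089 and 13646 against 15980.5, 14854 and 13980.5 (-0.36 ± 0.19 (SE)), and Pcna 11394, 9679 and 8909.6 against 14848, 12866 and 9869 (-0.31 ± 0.20 (SE)). For Mcm7 the groups did not overlap, and for Pcna they did. Mki67 lay in the other direction with 31572, 36732 and 36903 in active and 21738, 31629 and 31972 in sedentary HSC, a log2 fold change of 0.32 ± 0.20 (SE) with a low sedentary replicate 1. Cenpe, a kinesin of the kinetochore, at 0.33 ± 0.16 (SE) and Foxm1, a transcription factor of late cell cycle genes, at 0.15 ± 0.15 (SE) were the others at the upper end, and Cenpe showed no overlap.

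Limma called 0 of 42 members between active and sedentary HSC, where 0% of 13513 genes were called, and edgeR, DESeq2 and limma-voom called 0; 1 member, Ccne1, had an unadjusted p under 0.05 (2.38%, beside 9.27% of all genes). The medians were -0.28 for S phase, -0.12 for G1/S control and -0.05 for mitotic genes; 0 of 9 S phase genes and 9 of 42 members were above 0, where 50.5% of all genes were. Lower values with no overlap were found for 5 of 42 members, Mcm2, Mcm5, Mcm7, Ccne1 and Prc1, where 9.29% of genes showed this. The S phase median became -0.16 without active replicate 2 and -0.15 with that replicate's column from the other HSC table. Neutrophil markers summed to 106337 in that library, 12527 in active replicate 1 and 3378 in active replicate 3, against 2190 to 2605 in sedentary HSC. The first 2 of these libraries also had the lowest S phase scores of the active and sedentary HSC, at -0.36 and -0.10. Scored beside active HSC, transplant HSC had S phase scores of -0.27, -0.14 and 0.09, against 0.01, 0.12 and 0.19 in active HSC. Neutrophil sums there were higher in every transplant than in every active library, as given below, while the scores overlapped. The part of such cells was not tested.

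Transplant HSC were compared with active HSC within their own table, and helicase genes were again at the lower end. Mcm7 held 10065, 11708 and 13152 in transplant and 13899, 15154 and 15122 in active HSC, a log2 fold change of -0.35 ± 0.14 (SE) with an adjusted p of 0.277 in limma. Mcm2 held 10635, 12488 and 13412 against 13883, 16183 and 15932 (-0.34 ± 0.14 (SE)), and Cdt1, the Mcm loader, 3032, 3280.1 and 3569 against 4010.0, 3941 and 4209.9 (-0.30 ± 0.11 (SE)). In all 3 genes every transplant library was below every active one. Kif23, a kinesin of the central spindle, was at -0.33 ± 0.14 (SE). At the upper end Cenpa was at 0.24 ± 0.13 (SE), Nusap1, a spindle microtubule protein, at 0.22 ± 0.13 (SE) and Ccnb2, cyclin B2, at 0.17 ± 0.13 (SE). Mki67 held 29242, 32817 and 31995 against 34392, 33677 and 40894, each transplant library below each active one, at -0.21 ± 0.13 (SE).

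Limma called 0 of 42 members between transplant and active HSC, where 0.0513% of 13633 genes were called, and 2 members, Mcm7 and Cdt1, had an unadjusted p under 0.05 (17.8% of all genes did). With the replicate block 4 members had one, and the share of all genes under that block was not counted. EdgeR, DESeq2 and limma-voom called 0 as well. The medians were -0.22 for S phase, 0.02 for G1/S control and -0.04 for mitotic genes, with 0 of 9 S phase genes and 12 of 42 members above 0, where 50% of genes were. Lower values with no overlap were found for 8 of 42 members, where 12.1% of genes showed this. The S phase median was -0.12 without transplant replicate 1, -0.34 without transplant replicate 3, and -0.10 when active replicate 2 was taken from the other table. Some marker sums of other cell types differed without overlap between these groups, as 25.2% of all single genes did: neutrophil markers summed to 26180 to 29874 in transplant and 2835 to 13646 in active HSC, megakaryocyte markers to 8909 to 25817 against 2939 to 5552, and endothelial markers to 7679 to 12947 against 5613 to 6697. Vwf counts in both the megakaryocyte and the endothelial sum. The part of such cells in the values of the members was not tested.

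The widest gap in HSC lay between transplant and sedentary libraries, which were scaled together from recovered reads. Both groups of libraries also enter the comparisons with active HSC above, so this is no independent repeat of them. Ccne1 held 1921, 1654 and 1577 jointly scaled reads in sedentary HSC, with a mean of 1718 ± 181 (SD, n = 3), and 1005, 1209.7 and 1329.9 in transplant HSC, with a mean of 1182 ± 164 (SD, n = 3). Mcm2 held 17038, 16420.3 and 16091 in sedentary and 10625, 12467 and 13411 in transplant HSC. Mcm5 held 17537, 15802 and 15326 against 9662, 12066 and 13733. In these genes each transplant library was below each sedentary one. Mcm7 held 17433, 16180.5 and 15312 in sedentary and 10056, 11688 and 13151 in transplant HSC, and Cdt1 4379, 4378 and 4100.0 against 3029, 3275 and 3569, again without overlap.

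The log2 fold changes of transplant over sedentary HSC were -0.54 ± 0.15 (SE) for Ccne1, -0.49 ± 0.14 (SE) for Mcm7, -0.47 ± 0.16 (SE) for Mcm5, -0.45 ± 0.13 (SE) for Mcm2 and -0.38 ± 0.11 (SE) for Cdt1. The adjusted p in limma was 0.073 for Ccne1, Mcm7 and Mcm2, 0.0788 for Cdt1 and 0.114 for Mcm5, so none passed 0.05, where 11.6% of 13348 genes did. At an unadjusted p under 0.05, 7 of 42 members (16.7%) were lower and none higher: 4 of the 9 S phase genes, 2 of 7 G1/S control genes and 1 of 26 mitotic genes, where 13.8% of all genes were lower and 31.7% were changed either way with such a p. Other tests on the same libraries placed some members past the threshold, all of them lower. EdgeR called 4 members, Ccne1, Mcm7, Mcm2 and Cdt1, with adjusted p from 0.0276 to 0.0344, where it called 7.29% of genes lower. Limma-voom and limma with trend and robust options each called 6 members, these 4 with Mcm5 and Mcm3, where they called 6.56% and 8.25% of genes lower. DESeq2 called 7, these 6 and Kif23, where it called 9.89% of genes lower. The calls depended on the test, while the fold changes of the 4 members lay between -0.54 and -0.38 in all of them.

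Mitotic genes had a median near 0 in the same libraries. Mki67 held 23714, 34453 and 35017 in sedentary and 29214, 32761 and 31993 in transplant HSC, at 0.03 ± 0.18 (SE). Cdk1 held 4629, 3844 and 3318 against 3940.1, 3737 and 4038 (0.0035 ± 0.15, SE), and Top2a 26634, 28883 and 28280.5 against 23969, 21785 and 28123 (-0.19 ± 0.13 (SE)). The groups overlapped in all 3. At the upper end were Nusap1 at 0.21 ± 0.14 (SE), Cenpa at 0.18 ± 0.15 (SE) and Cenpe at 0.15 ± 0.16 (SE). E2f1 held 1504, 1456 and 1495 in sedentary and 1597, 1523 and 1606 in transplant HSC, each transplant library above each sedentary one, at 0.08 ± 0.10 (SE). In these libraries Ccne1 was lower and Ccne2 was at -0.05 ± 0.15 (SE).

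**Figure D5:**
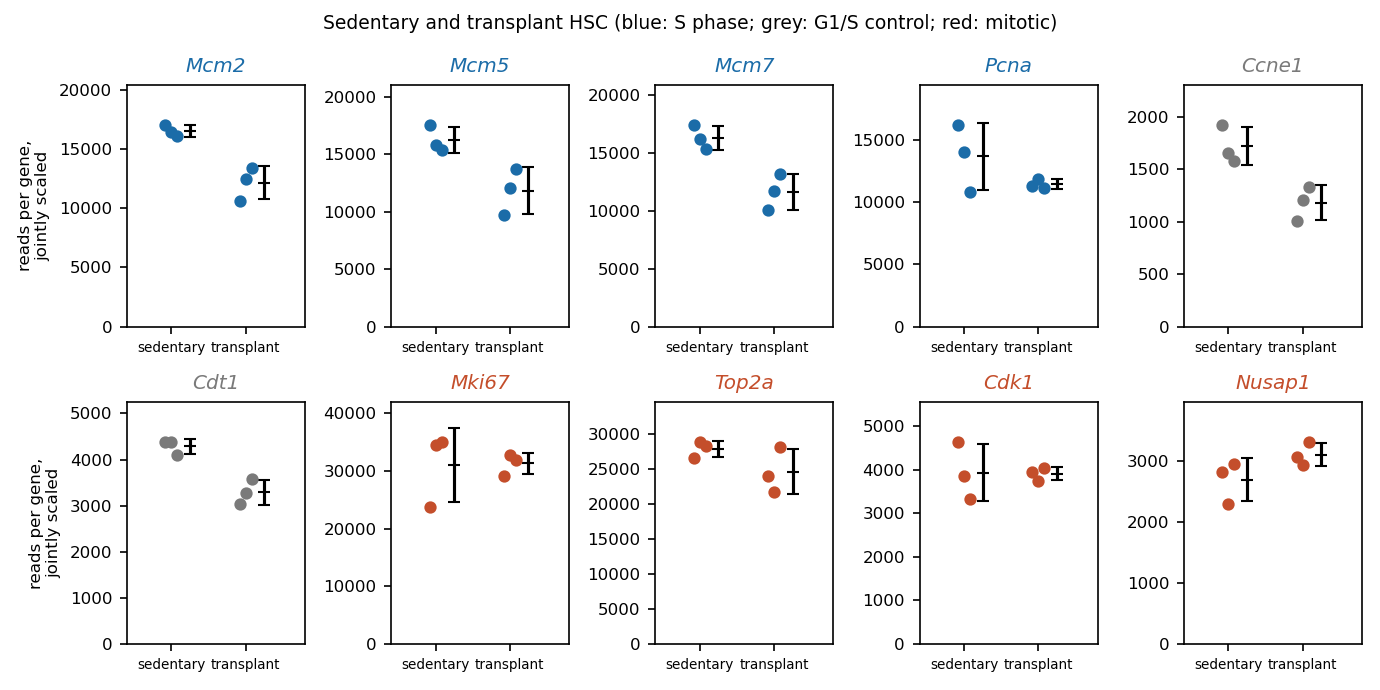
Points are jointly scaled reads of 10 genes in 3 sedentary and 3 transplant HSC libraries on linear axes that start at 0; black marks give the mean ± SD of 3. Mcm2, Mcm5, Mcm7, Ccne1 and Cdt1 show no overlap between the groups, and Mki67, Top2a and Cdk1 overlap.

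The class medians for transplant against sedentary HSC were -0.34 for S phase, -0.18 for G1/S control and -0.05 for mitotic genes, with 0 of 9 S phase genes and 12 of 42 members above 0, where 50% of genes were. Lower values without overlap were found for 11 of 42 members, 5 of them S phase genes, where 18.4% of genes showed this. The S phase median minus the mitotic median was -0.29, and per library the S phase score minus the mitotic score was 0.21, 0.14 and 0.11 in sedentary and -0.24, -0.16 and -0.05 in transplant HSC, without overlap. It was -0.23 for active against sedentary HSC and -0.18 for transplant against active HSC. Without transplant replicate 3, the deepest of its group, the S phase median of the transplant comparison was -0.49, and with replicates 1 and 2 of each group alone it was -0.46. Neutrophil markers summed to 26180 to 29874 in transplant HSC, and 6 of 6 of them were listed, whereas Hoxa9, a gene of stem and progenitor cells, was at 2.34 to 4.56 RPKM in transplant and 8.599 to 12.23 RPKM in sedentary HSC. The part of such differences in cell make-up was not tested, and week 14, transplantation and the recipient's state cannot be told apart in this group.

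Genes of the same pathways outside the 42 had medians near those of the members in some comparisons and not in others. Of 40 other replication genes, such as the GINS and origin recognition subunits, 0 passed in limma in any of the 8 comparisons within tumours or within HSC, and of 62 other mitotic genes, such as kinesins and condensins, 0 passed. Of all genes, 0% to 11.6% passed in these comparisons, with the most in transplant against sedentary HSC. At week 18 the medians of active over sedentary tumours were 0.30 for the replication and 0.52 for the mitotic genes, with 39 of 40 and 62 of 62 above 0. In transplant against sedentary HSC they were -0.29 and -0.02, with 1 of 40 and 24 of 62 above 0. At an unadjusted p under 0.05 in limma, 12 of 40 replication genes (of 13 in either direction) and 3 of 62 mitotic genes were lower, where 13.8% of all genes were. In transplant against active HSC the medians were -0.12 and -0.01, beside -0.22 for the S phase and -0.04 for the mitotic members. In sedentary tumours against HSC they were -2.28 and -2.11, closer to each other than the -2.88 and -2.28 of the S phase and mitotic members. There 38 of 40 replication genes and 59 of 62 mitotic genes fell at an adjusted p under 0.05 in limma, where 34.9% of 12430 genes were called lower. Among the replication genes Orc1, an origin recognition subunit, was at -3.99, Cdca7 at -3.60 and Dut, which removes dUTP, at -3.52, and among the mitotic genes Kif15 was at -3.38 and Depdc1b at -3.25. Pttg1 (securin) was the 1 gene of either list called higher in tumours at that threshold, at 0.63. By the authors' deposited tables, none of the 42 members was past 0.05 in any of the 4 comparisons, with the lowest adjusted p at 0.874 for Gmnn (week 12), 0.364 for Rrm2 (week 18), 0.233 for Ccne1 (active against sedentary HSC) and 0.113 for Cdt1 (transplant against active HSC). Over all genes, 204 of 19241 were past it at week 12 and 41 of 19241 at week 18. In HSC, 223 of 13513 genes were past it for active against sedentary and 1080 of 13636 for transplant against active.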

How the data were processed

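RNA sequencing of 12 tumours and 9 HSC libraries was analysed; TRIzol served for tumour RNA, a micro RNA kit for sorted HSC and a stranded mRNA kit for all libraries, per the labels' protocols. The authors deposited 4 tables, each with a normalized signal per gene and library, a log2 fold change and a p-value. The deposited signal is a gene count divided by 1 factor per library, since 100% of values came back as whole reads within 0.02. Build mm10 is named in the submitters' processing notes; aligner, counter and annotation are not given in the sources used here. The deposited unit being normalized, limma 3.58.1 in R 4.3.3 was run on log2(value + 1) for genes whose mean reached 1 in 1 or both groups, with Benjamini-Hochberg adjustment over all genes and a threshold of 0.05; fold changes are on that scale. All 12 tumours carry a common scaling, so weeks were compared on the authors' values. Transplant with sedentary HSC and tumours with HSC were compared on recovered reads joined by symbol and scaled by the median of ratios. EdgeR 4.0.16, DESeq2 1.42.0 and limma-voom on recovered reads were alternatives, as were other scalings, filters and pseudocounts and leaving out each library. RPKM used GENCODE M21 exon lengths by symbol and recovered reads. Reads carry no molecular identifiers. The members, lists and named genes (14 chosen genes, members past the threshold or the 10 largest of them, and the 3 largest differences in each direction per comparison) were chosen with earlier results of these data known. Same-numbered libraries deviated together in active against sedentary tumours at week 18 (0.164, 0.159 and 0.139) and in transplant against active HSC (0.105, 0.116 and 0.318), every pair being over 0.1; printed fold changes, errors and overlaps use no block, and the fit with the replicate block is an alternative given beside them. The procedure was tested on simulated data with changes larger than those of any member within tumours or within HSC. That test cannot show whether changes of the members' size would be called.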

Additional observations from a re-analysis of the deposited data

How the results depend on the processing

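Members called kept their number, within 1.5 times, in all but 5 settings, and no result changed sign past the threshold. That number was 0 in the main fit of each comparison within tumours or HSC. By these rules 334 of 341 alternative values for whole comparisons stayed the same. For the S phase minus mitotic median, the same meant a shift below the SD of that score among libraries of a group. Medians of the members or of 1 class, which moved as given above, are not among these values. DESeq2 called 2 members, Gmnn and Rrm2, in active tumours over time. For transplant against sedentary HSC the count of 0 became 6 with limma trend and robust options, 4 with edgeR, 7 with DESeq2 and 6 with limma-voom. The S phase minus mitotic median there ran from -0.41 to -0.26 when 1 library was left out, and that of tumour against HSC from -0.76 to -0.49. The replicate block gave 0 members called in each comparison within tumours or HSC and 41 in tumour against HSC, and in active tumours over time, where the numbers do not pair the libraries, it moved members with an unadjusted p under 0.05 from 14 to 24. The share of all genes with such a p under the block was not counted, so the rise cannot be read as particular to the members. Birc5 lost its call in tumour against HSC without sedentary tumour replicate 2 or 3 or sedentary HSC replicate 1 or 2. Precision is limited by 3 libraries per group, and in tumours by a spread in which single libraries moved the members' median past 0 at week 12.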

Other observations

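The 2 columns numbered 6 among the active HSC, 1 in each HSC table, differed in the same direction as transplant from sedentary HSC. With each column scaled to its total, the 9 S phase genes had a median log2 ratio of -0.37 for the column beside the sedentary libraries over the column beside the transplant libraries, with 9 of 9 below 0. The 26 mitotic genes had a median of -0.10, with 18 below 0, and the 6 neutrophil markers a median of 5.69. This was seen after the values were known, has 1 library on each side and no test, and the labels do not say which column is the sample.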
